A study of Mus musculus with 7 samples.

Results

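miR-126 is made as both strands of a single hairpin, miR-126-3p and miR-126-5p, and each had its own quantitative PCR assay among the 517 miRNA assays measured here. The 2 members were taken by exact assay name, and each was read in 1 well per sample. The samples were 3 cultures of M1 macrophages and 4 aortas, and the labels call every sample a biological replicate without saying whether each came from its own animal. The macrophages came from bone marrow of female C57BL/6 mice aged 6 to 8 weeks, were grown for 7 days in medium with L929-conditioned medium, and were polarized with lipopolysaccharide at 100 ng/ml for 14 hours and interferon-γ at 10 ng/ml for 6 hours. The aortas came from untreated females of the same age, and their strain label is apoE-/-, although the series title calls the aortas normal. Strain and sample type therefore cannot be told apart, and no unstimulated macrophages were measured.

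The miR-126 hairpin lies in an intron of Egfl7, a gene of endothelial cells, the cells that line blood vessels. In endothelial cells miR-126-3p is known to restrain Spred1 and Pik3r2, inhibitors of growth factor signalling, and to lower the adhesion molecule VCAM1, while miR-126-5p restrains Dlk1 and so favours endothelial cell division. Platelets and blood stem cells also carry miR-126, so it is not a marker of endothelium alone. A whole aorta holds endothelium as a thin inner layer beside smooth muscle, fibroblasts, fat and blood cells.

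In RefSeq (GRCm38.p6) the hairpin is at chr2:26591357-26591429 on the plus strand, 73 bases long and inside the span of Egfl7 at chr2:26581083-26592682. The mature miR-126-3p, named miR-126a-3p there, takes 22 bases at chr2:26591402-26591423. Both sequences are shown because the seed sets which transcripts miR-126-3p can pair with and the hairpin shows where miR-126-3p lies in its precursor. The sequence of miR-126-5p was not available and is not marked. The capitals mark the seed (bases 2 to 8) in the mature sequence, and the whole of miR-126-3p in the hairpin.
miR-126-3p: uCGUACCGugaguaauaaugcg
miR-126 hairpin: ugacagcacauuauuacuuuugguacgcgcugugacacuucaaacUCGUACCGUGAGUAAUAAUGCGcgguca
Among 1679 mature mouse miRNA names in the RefSeq table, 0 others had the seed CGUACCG, so the table names no seed relative of miR-126-3p. miR-126-5p is cut from the 5′ arm of the same hairpin. A second hairpin, Mir126b, is annotated on the minus strand of the same locus (chr2:26591363-26591420), and its products were not analysed here.

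Both strands were among the most abundant miRNAs of the aortas and were low, but detected, in every macrophage culture. The deposited value is the cycle threshold (Ct), the PCR cycle at which the signal crosses a set line, so a lower Ct stands for more target. miR-126-3p crossed at 28.529, 27.832 and 29.947 cycles in M1 macrophages, against 15.216, 16.094, 14.360 and 15.412 cycles in aortas. The groups did not overlap, and the earliest macrophage culture came 11.7 cycles after the latest aorta. miR-126-5p crossed at 31.001, 28.425 and 31.236 cycles in M1 macrophages, against 17.512, 18.417, 16.720 and 17.657 cycles in aortas. Here too the groups were apart, by 10.01 cycles between the nearest samples, and macrophage replicate 2 was the earliest of the cultures.

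**Figure D1:**
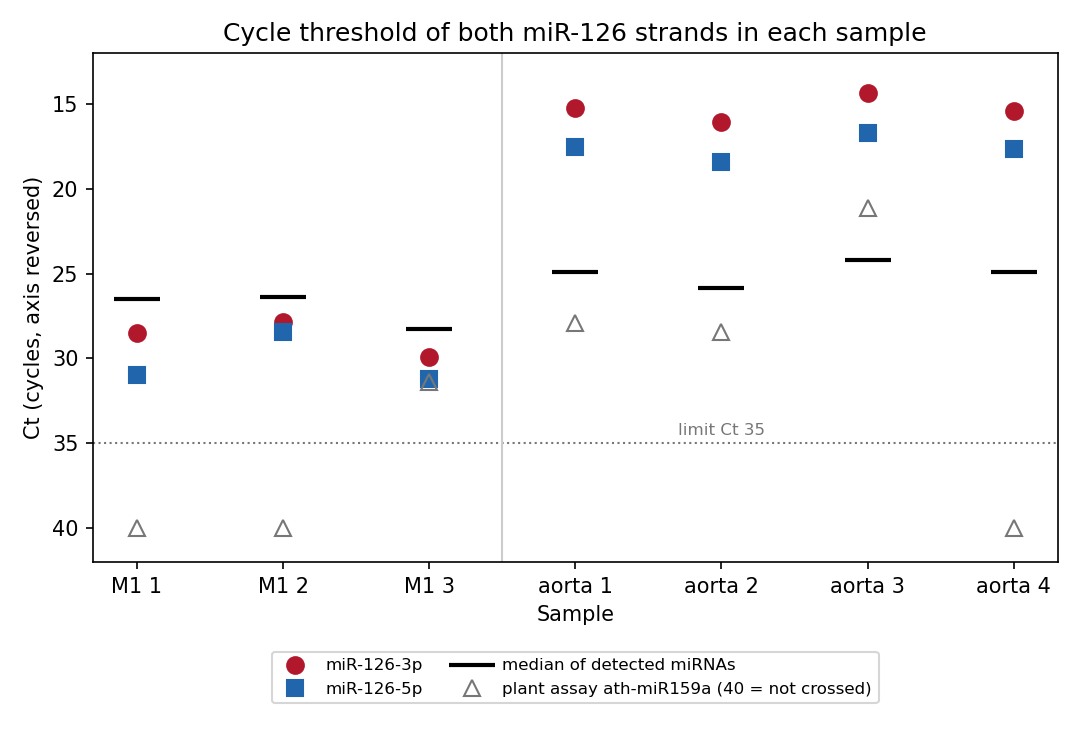
Ct of miR-126-3p (circles), miR-126-5p (squares) and a plant miRNA assay (triangles, drawn at 40 where the well did not cross) in each of the 3 M1 and 4 aorta samples, with the median Ct of the miRNAs detected in that sample (bars); the axis is reversed, so more target is higher. Relative to that median, the strands lie 1.47 to 4.49 cycles later in M1 macrophages and at -9.835 to -7.246 cycles, earlier, in aortas.

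Counting the miRNA assays from the earliest Ct, miR-126-3p took places 250, 228 and 212 in M1 macrophages, against places 5, 8, 4 and 7 in aortas. miR-126-5p took places 316, 256 and 266 in M1 macrophages, against 16, 19, 16 and 20 in aortas. A well at Ct 35 or earlier was counted as detected, and 326 to 366 miRNAs were detected per macrophage culture and 416 to 454 per aorta. miR-126-3p therefore stood at 62.3% to 69.6% of the way down the detected miRNAs of a macrophage culture and within the first 0.881% to 1.92% of those of an aorta. Places compare different assays, whose amplification efficiencies were not measured.

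The macrophage cultures gave later Ct values in general, with a mean over 296 miRNAs detected in all 7 samples of 25.4 to 27.8 cycles, against 22.6 to 24.7 cycles in aortas. The level used below is that sample mean minus the Ct of the miRNA, on a log2 scale under the assumption of a doubling per cycle. On this scale miR-126-3p was at -3.14, -2.38 and -2.18 in M1 macrophages, against 8.27, 8.61, 8.26 and 8.02 in aortas. miR-126-5p was at -5.61, -2.97 and -3.47 in M1 macrophages, against 5.98, 6.29, 5.90 and 5.77 in aortas. Scaling left a gap of 10.2 between the nearest samples of the groups for miR-126-3p and of 8.75 for miR-126-5p. Of all tested miRNAs 31.5% had every macrophage culture below every aorta.

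The scaled level of miR-126-3p averaged -2.57 ± 0.50 in M1 macrophages (SD, n = 3) and 8.29 ± 0.24 in aortas (SD, n = 4). The difference was -10.86 ± 0.40 (SE), which is 1856-fold lower in macrophages with a 95% interval of 963-fold to 3578-fold (limma across 429 tested miRNAs, adjusted p = 2.88e-06). miR-126-5p averaged -4.02 ± 1.40 in M1 macrophages (SD, n = 3) and 5.99 ± 0.22 in aortas (SD, n = 4). Its difference of -10.00 ± 0.66 (SE) is 1026-fold lower, with an interval of 351-fold to 3005-fold (limma, adjusted p = 3.42e-05). Both members thus fell, where 30.8% of all tested miRNAs were called lower in macrophages. The exact permutation test of each single strand gave p = 0.0286 (2-sided), the smallest that the 35 splits of 3 against 4 samples allow. Fewer cells that carry miR-126 and less of it per cell cannot be told apart in these samples.

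The size of the fall moved with the scaling, but its direction did not in any setting run. Against the 6 control small RNAs singly, the difference of miR-126-3p lay between -14.01 (snoRNA135) and -10.81 (snoRNA429), and that of miR-126-5p between -13.15 and -9.95 with the same controls. Without macrophage replicate 1 the difference of miR-126-5p was -9.21, while that of miR-126-3p was -10.58. If each cycle multiplied the product by 1.8 in place of 2, the folds would be 591 for miR-126-3p and 358 for miR-126-5p.

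**Figure D2:**
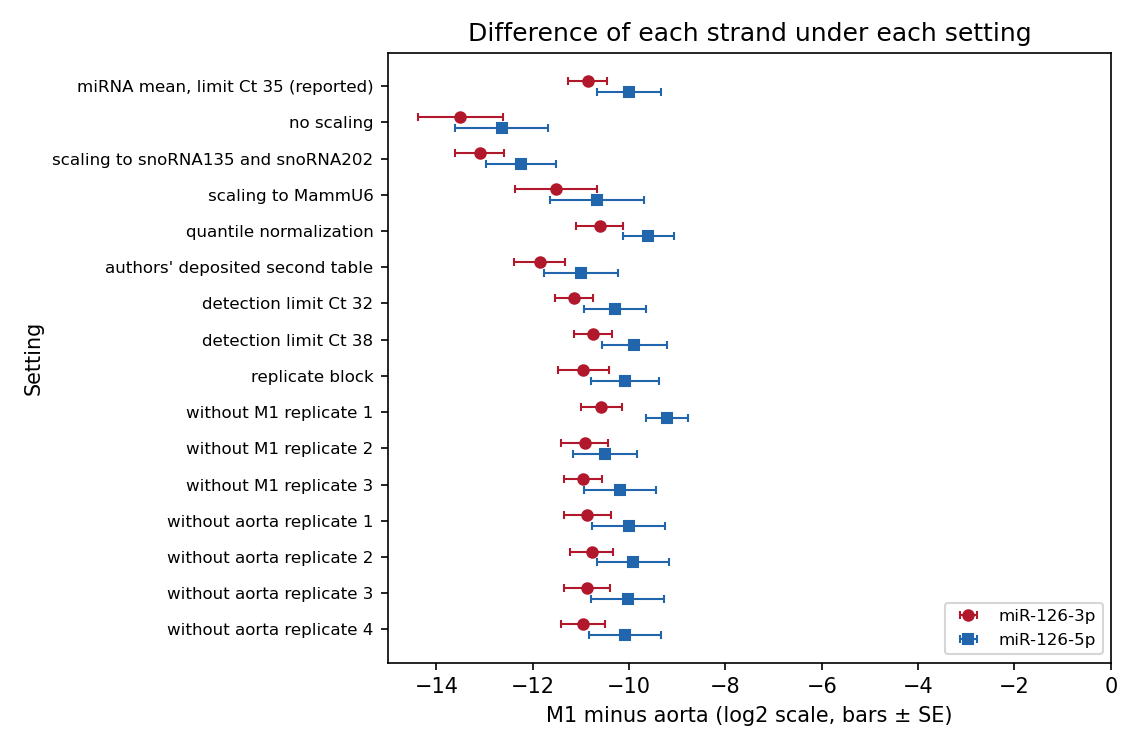
Difference in scaled level, M1 minus aorta (log2 scale, horizontal axis), of miR-126-3p (circles) and miR-126-5p (squares) under the settings named on the vertical axis, with bars of ± 1 SE; the factor of 1.8 per cycle and the filters on low values are not drawn. All values shown are below -9, the lowest without any scaling and the highest for miR-126-5p without macrophage replicate 1.

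By the size of the difference, miR-126-3p was in place 7 and miR-126-5p in place 13 of the 429 tested miRNAs, counted from the lowest in macrophages. Among the 296 miRNAs detected in all 7 samples, where no value rests on the detection limit, they took places 3 and 7. The smooth muscle miRNAs miR-143 and miR-145 came before them, at -14.62 and -14.54. The mean level in macrophages was 0.0539% of that in aorta for miR-126-3p and 0.0974% for miR-126-5p. It was lower for the smooth muscle miRNAs, at 0.00398% for miR-143 (difference -13.99 without macrophage replicate 2) and 0.0042% for miR-145. The shares of miR-451 (0.0744%) and miR-193b (0.086%) lay between those of the miR-126 strands, and that of miR-199a-3p (0.433%) lay above them. The source of these traces was not tested.

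An assay for a plant miRNA, ath-miR159a, has no mouse counterpart, and whether its target was added to the RNA is not stated. It did not cross in macrophage replicates 1 and 2 and crossed at 31.4 cycles in macrophage replicate 3, against 27.9, 28.4 and 21.1 cycles in aorta replicates 1, 2 and 3 and no crossing in aorta replicate 4. miR-126-3p crossed before it in all 7 samples, by 1.46 cycles in macrophage replicate 3 and by at least 6.76 cycles in each other sample. miR-126-5p crossed only 0.173 cycles before it in macrophage replicate 3, less than the median of 0.46 cycles between repeated wells of the control RNAs. Its Ct in that culture is therefore not told apart from that of the plant assay. The plant assay ranged from 21.1 cycles to no crossing among the aortas, so it sets no fixed background. Whether miR-126-5p was above background in that culture was not tested. Without macrophage replicate 3 the differences were -10.95 for miR-126-3p and -10.18 for miR-126-5p.

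The strands kept a nearly fixed ratio in the aortas. The strand difference, the level of miR-126-3p minus that of miR-126-5p, is the same under every scaling by a single value per sample. It was 2.47, 0.593 and 1.29 in M1 macrophages, against 2.30, 2.32, 2.36 and 2.25 in aortas. The 4 aortas lay within 0.115 of each other, while the cultures spread from below all aortas to above them, so the groups overlapped, where 53.1% of the hairpins fitted below had groups that did not. If both assays amplify alike, these means put miR-126-3p at 2.73 times miR-126-5p in macrophages and 4.95 times in aortas.

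The strand difference averaged 1.45 ± 0.95 in M1 macrophages (SD, n = 3) and 2.31 ± 0.05 in aortas (SD, n = 4). The change of -0.85 ± 0.52 (SE) did not pass, with a 95% interval of -2.02 to 0.32 (limma across 64 hairpins with both strands detected in all 7 samples, adjusted p = 0.2001). The exact permutation test gave p = 0.143 (2-sided, 35 splits). Of the 64 hairpins 51.6% passed, so a changed strand difference was common on this panel. Without macrophage replicate 1 the change was -1.37 and passed narrowly (adjusted p = 0.0483), and without macrophage replicate 2 it was -0.43 (adjusted p = 0.564), so the call rests on which cultures are kept.

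Among those 64 hairpins, miR-126 had the smallest spread over the aortas, with an SD of 0.0484 against a median of 0.675 and a next smallest of 0.169 for miR-324. Over the macrophage cultures its SD of 0.95 was in place 47, counted from the smallest, and the median was 0.714. Its later strand crossed at a mean of 30.2 cycles in macrophages and 17.6 cycles in aortas. Hairpins whose later strand had a mean under Ct 25 had a median SD of 0.44 in macrophages (7 hairpins) and 0.518 in aortas (24 hairpins). For a mean of Ct 25 to 30 the medians were 0.724 in macrophages (46 hairpins) and 0.76 in aortas (38 hairpins). For a mean of Ct 30 to 35 they were 0.732 in macrophages (11 hairpins) and 0.934 in aortas (2 hairpins). The part of late Ct in the spread of miR-126 among the cultures was not tested. By its own size, the strand difference of miR-126 was in place 52 of 64 in macrophages and 41 of 64 in aortas, counted from the largest.

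**Figure D3:**
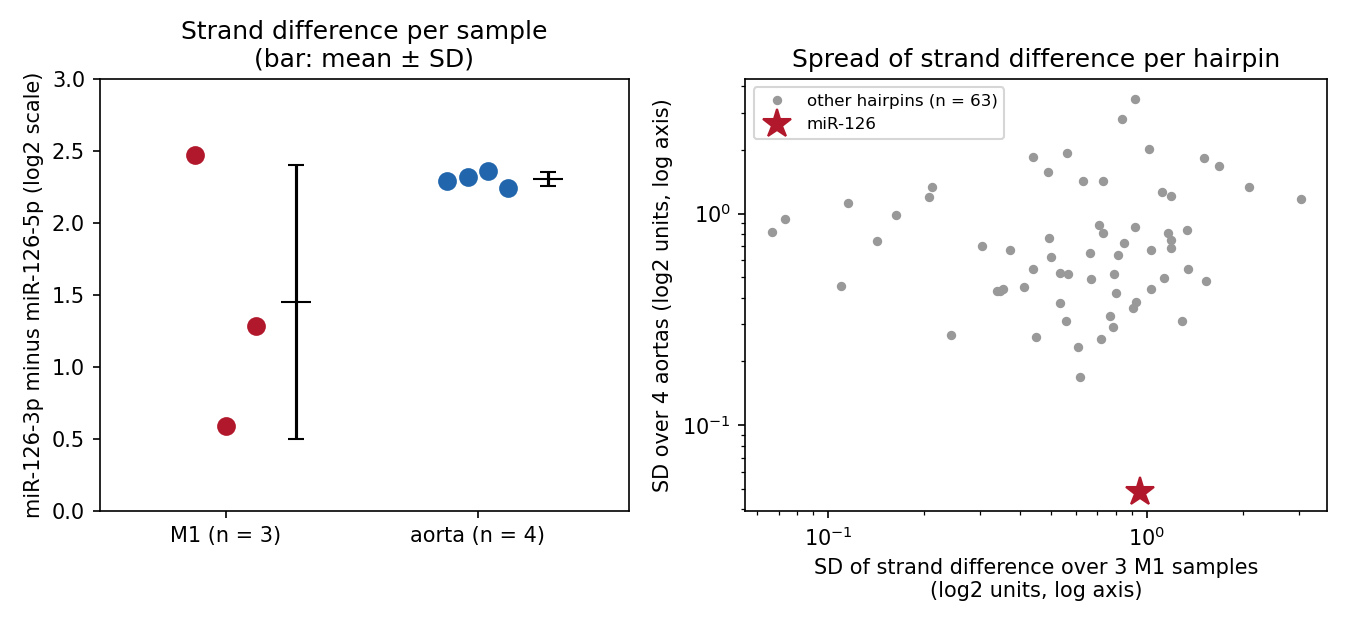
Left, the strand difference of miR-126 (log2 scale, vertical axis) in each M1 and aorta sample, with the mean ± SD beside the points. Right, the SD of the strand difference over the 3 M1 cultures (horizontal, log axis) and over the 4 aortas (vertical, log axis) for 64 hairpins, where miR-126 (star) is lowest on the aorta axis at 0.0484.

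Each strand also varied little among aortas in its scaled level. The aorta SD of 0.24 for miR-126-3p and 0.22 for miR-126-5p were places 35 and 25 from the smallest among the 296 miRNAs detected everywhere, whose median was 0.57. Among macrophage cultures the SD of 0.50 for miR-126-3p was close to the median of 0.56, and that of 1.40 for miR-126-5p was in place 262 of 296.

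In order of mean level, miR-126-3p stood between miR-199a-3p (-2.55 ± 0.31) and miR-181c (-2.63 ± 0.31) in macrophages, and between miR-140 (8.66 ± 0.49) and miR-193b (8.12 ± 0.49) in aortas (SD, n = 3 and n = 4). miR-126-5p stood between miR-672 (-3.95 ± 2.89) and miR-411 (-4.07 ± 0.54) in macrophages, and between miR-466d-3p (6.11 ± 0.93) and miR-125b-5p (5.91 ± 0.43) in aortas. None of these neighbours was further from its strand of miR-126 than the larger of the paired SDs.

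The profiles most like each strand were found by Euclidean distance over the 7 samples, after subtracting each miRNA's own mean, among 427 other tested miRNAs. The strands were 1.75 apart from each other. miR-133b, a muscle miRNA, was as near to miR-126-3p, at 1.75, followed by miR-224 (2.08), miR-193b (2.38), miR-485* (2.52) and miR-376c (2.58). For miR-126-5p the nearest was miR-218, at 1.36 nearer than its own partner strand, then miR-376c (1.77), miR-10b (2.12), miR-224 (2.28) and miR-485* (2.39). miR-133b, miR-224 and miR-485* were detected in no macrophage culture, so their places rest on the detection limit. Of the others, miR-193b, a miRNA of brown fat, differed by -10.18 (-9.43 and -10.97 without macrophage replicates 2 and 3) and miR-376c, of the imprinted Dlk1-Dio3 region, by -9.73 (-10.58 without macrophage replicate 2). The distance takes in the size of the difference between the groups.

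Other miRNAs with known roles in endothelial cells went both ways. Of a list of 20, 19 were on the panel and tested, of which 7 rose, 6 fell and 6 did not pass. Of all tested miRNAs 24.7% rose and 30.8% fell. Among the 296 miRNAs detected in all 7 samples, 102 rose and 76 fell. Of the 18 list members among them 8 rose and 5 fell. The median difference over the 19 was 0.58, beside -0.21 over all 429 tested. The list median was -2.06 without scaling, -1.65 with scaling to the snoRNA pair (snoRNA135 and snoRNA202) and -0.07 with MammU6. The median over all tested miRNAs moved as well, to -2.85, -2.45 and -0.86 in these settings. The list median was -0.41 with the authors' deposited table and 0.08 without aorta replicate 3. Its sign thus depended on the scaling. It lay above the median of all tested miRNAs in every setting where both were computed. A scaling by a single value per sample moves both medians alike, however. The settings without scaling, with the snoRNA pair and with MammU6 could therefore not change this order. Among the 296 miRNAs detected in all 7 samples the list median was 0.67, beside 0.56 over all of them. Whether the list differs from the other miRNAs was not tested. The list members nearest to the strands of miR-126 were miR-10b, a Hox cluster miRNA that promotes vessel sprouting in zebrafish, at -9.64 with 1 macrophage culture undetected (-8.68 and -10.90 without macrophage replicates 1 and 2), and miR-218, which lies in the Slit genes, at -9.46 (-8.42 without macrophage replicate 1). The order of miR-10b and miR-126-5p depended on the limit given to the undetected well, since miR-10b was at -10.17 and miR-126-5p at -9.89 with a limit of Ct 38, and at -11.28 and -11.00 in the authors' deposited table.

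miR-31, which limits the adhesion molecule E-selectin in human endothelial cells, fell by 7.57 on the log2 scale (limma, adjusted p = 0.000101), with -8.38 and -6.92 without macrophage replicates 1 and 2. miR-221, which restrains the receptor KIT in human endothelial cells, rose by 5.58 (limma, adjusted p = 5.32e-05). The count of list members that rose was 1 without scaling and 2 with scaling to the snoRNA pair, to MammU6 or with the authors' deposited table, while 5 to 9 fell over all settings run.

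**Figure D4:**
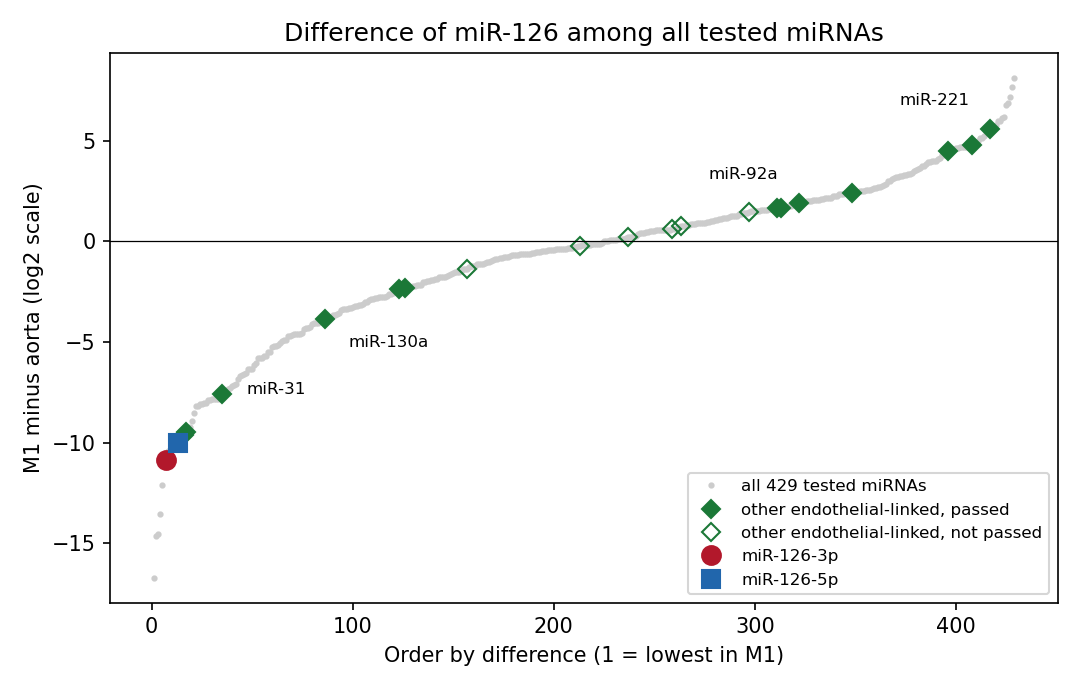
Difference in scaled level, M1 minus aorta (log2 scale, vertical axis), of 429 tested miRNAs in order of the difference (horizontal axis, 1 is lowest in M1). miR-126-3p (circle, -10.86) and miR-126-5p (square, -10.00) lie near the low end, and the 19 other endothelial-linked miRNAs (diamonds, filled where they passed) spread from -9.64 to 5.58.

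The markers of other cells in the samples moved as follows, and their part in the miR-126 result was not tested. All 3 leukocyte markers rose, with a summed level of 8.97 to 9.97 in macrophages and 4.29 to 5.68 in aortas, and miR-223 was at 4.62 (limma, adjusted p = 0.000291). Without scaling none of the 3 passed (1.34 to 1.98, adjusted p = 0.101 to 0.312), and with scaling to the snoRNA pair miR-223 was at 2.38. The 3 muscle markers, which were the smooth muscle miRNAs miR-143 and miR-145 and the muscle miRNA miR-133a, fell. Their summed level was -3.17 to -1.21 in macrophages and 12.2 to 13.1 in aortas. All 3 fibroblast and all 3 fat markers fell as well, at -0.989 to -0.102 and -1.04 to 1.36 in macrophages and at 6.33 to 7.48 and 7.95 to 8.97 in aortas. Both measured red blood cell markers fell, with a summed level of -7.93 to -4.2 in macrophages and 2.2 to 4.4 in aortas. The difference of miR-451 was -10.39 (-9.74, -9.66 and -11.65 without macrophage replicates 1, 2 and 3). miR-150, the lymphocyte marker, was at -6.67. Of these markers miR-133a and miR-486 were detected in no macrophage culture. The fat marker miR-455 was detected only in macrophage replicate 1, and the fibroblast marker miR-199a-5p was undetected in macrophage replicate 3. In macrophage replicate 2 miR-199a-5p was at -0.93, against -0.03 to 0.89 in aortas.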

How the data were processed

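Ct values of 524 assays (517 miRNAs and 7 controls) in 7 samples were used, with wells that did not cross listed at 40. The other table deposited by the authors holds log2 values in cycles. Tested on the values, they equal the Ct minus a constant per sample, the average of its MammU6 and snoRNA202 wells, within 5.0e-05 cycles. The instrument and threshold are not given in the sources. Repeated wells were averaged. Wells later than Ct 35 were set to 35. The level was the sample's mean Ct over 296 miRNAs detected in all 7 samples minus the Ct. The 429 miRNAs that 3 or more samples of a group detected were tested with limma 3.58.1 in R 4.3.3 (lmFit, eBayes, 2-sided, Benjamini-Hochberg, threshold 0.05), with group as the only term. Strand differences were fitted likewise over 64 of 139 hairpins with 2 assays. Depth is the number of detected miRNAs and the mean Ct, and the number of samples limits precision. On simulated data of this comparison (429 miRNAs), the test recovered 18.1% of changes of 2 and 75.9% of changes of 4 on the log2 scale. It recovered all of the larger ones tried, and 2.87% of the calls made were false. The simulated noise was normal, with a single SD for all miRNAs and both groups, taken from the aortas, and without a detection limit. Recovery in the data can therefore differ. Deviations from the group means of same-numbered samples correlated at 0.11, 0.0077 and -0.0738. With 3 and 4 samples this cannot settle whether they pair, and the strain labels differ between the groups.

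The members, lists and tests were chosen with earlier results of these data known. miRNAs were named by rule: the 5 profiles nearest to each strand, the neighbours in level, the 4 endothelial-linked miRNAs with the largest differences, seed relatives and cell markers; others were chosen after their values were seen. RefSeq names matched 1 of the 2 members. Alternatives covered scaling, detection limit, filter, amplification factor, replicate block and leaving out each sample. Python 3.11.15, pandas 2.3.3, numpy 2.4.6 and matplotlib 3.10.9 were used.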

Additional observations from a re-analysis of the deposited data

How the results depend on the processing

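Both strands kept their direction and their call in all 18 alternatives each. Their differences were -13.50 (no scaling) to -9.21 (a factor of 1.8 per cycle) for miR-126-3p and -12.64 to -8.48 for miR-126-5p. Not all alternatives could change a call or a direction. The factor of 1.8 multiplies a difference and its SE alike, so it could not change a call. The filters on low values left both differences as reported and could move only the SE and the adjusted p. Leaving out each sample gave -10.96 to -10.58 and -10.50 to -9.21. The change of the strand difference lay between -1.37 and -0.43 when samples were left out and passed in 1 of 14 alternatives, without macrophage replicate 1 (-1.37). Of these alternatives, the deposited table and the factor of 1.8 could not change that call. The other detection limits and the entry of undetected wells left the strand change at -0.85 and could move only its SE and adjusted p. With the replicate block the differences were -10.95 and -10.07 and the strand change -0.87, and the block changed no call of these. Since the samples share only a number, the block is not a pairing. The numbers of miRNAs called higher and lower in macrophages, 106 and 132, were 10 and 207 without scaling, 32 and 231 with the snoRNA pair, and 76 lower among the 296 miRNAs detected in all 7 samples, where fewer were tested. Those higher were 52 with MammU6 and 53 with the deposited table. The median of all tested miRNAs shifted from that of the reported setting by -2.64 without scaling, -2.24 with the snoRNA pair and -0.66 with MammU6. It shifted by -1.20 with the deposited table and 0.61 with quantile normalization. The members' differences above are not taken relative to this median. Less the median they were -10.65 and -9.80 in the reported setting, without scaling, with the snoRNA pair and with MammU6. They were -10.45 and -9.59 with the deposited table and -11.02 and -10.01 with quantile normalization. List members that rose, 7, were 1 without scaling and 2 with the snoRNA pair, MammU6 or the deposited table. The hairpins with a changed strand difference, 33 of 64, were 51 of 106 when undetected wells entered at the limit. Leaving out samples gave 90 to 112 higher, 115 to 139 lower, 5 to 7 and 6 to 6 list members and 29 to 33 hairpins. Of 268 values of 16 other named miRNAs, added after seeing the data, 265 kept direction and call, the exceptions being the 3 leukocyte markers without scaling. The cause of these changes was not tested. Late Ct in macrophages limits what can be said of miR-126-5p there.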
